A study of Mus musculus with 15 samples.

Results

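Genes of the proteasome and of its assembly and activation were followed in AM-14 B cells, which come from mice with a transgenic receptor for self IgG. Members were the genes whose mouse symbol begins with Psma, Psmb, Psmc, Psmd, Psme, Psmf or Psmg and that had an Affymetrix probe set carrying 1 symbol only, and each gene was read from its brightest probe set. This gave 49 genes of 18193, of which 47 were among the 13160 genes bright enough to be tested. The 15 arrays fell into 5 groups of 3: cells in media alone, cells given F(ab')2 goat antibody against mouse IgM, cells given the phosphorothioate CpG oligodeoxynucleotide 1826, cells given PL2-3, whose treatment the labels describe as chromatin immune complexes, and cells given anti-IgM with CpG. The antibody against IgM engages the antigen receptor, CpG DNA is a ligand of TLR9, and complexes of PL2-3 with chromatin can reach both, since the AM-14 receptor takes up the DNA they carry. The labels give no age, sex, strain background, dose or time, and do not say if a group's arrays stem from different cultures or mice, so p-values reflect only how far those arrays spread. All 5 groups share the transgenic receptor, and an untransgenic B cell was not analysed here. Of the members, Psmc3ip and Psme3ip1 entered by their symbols alone and encode no proteasome subunit. Psme2 was not a member, because its probe set is listed for Psme2 and Psme2b together.

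The proteasome degrades proteins that carry ubiquitin chains. Its 20S core is a barrel of alpha rings (Psma) around beta rings (Psmb), and 3 of the beta subunits, encoded by Psmb5, Psmb6 and Psmb7, cut peptide bonds. In lymphoid cells and under interferon, Psmb8, Psmb9 and Psmb10 replace Psmb5, Psmb6 and Psmb7 in the immunoproteasome, which is known for making peptides that MHC class I presents. The 19S cap, made of ATPases (Psmc) and other subunits (Psmd), binds and unfolds substrates, the Psme proteins activate the core by other routes, and the Psmg chaperones assemble it.

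Signals are linear MAS5 intensities, as deposited. Changes are differences of log2(signal + 75.2) ± SE (limma, n = 3 arrays in each group). Rose and fell are written of genes whose limma adjusted p, over all 13160 genes, was under 0.05, and such genes are called. A log2 change of 1 is a 2-fold change. Array medians lay between 263 and 514 signal units. The labels put replicate 3 of each group on the Ambion labelling kit and the other replicates on the Enzo kit. The 5' to 3' ratio of the beta-actin controls was 0.335 to 0.747 on the Enzo arrays of the other 4 groups and 0.108 to 0.201 on their Ambion arrays, but 0.105 to 0.193 on all 3 anti-IgM+CpG arrays. Those 3 arrays also had Xist signals of 321 to 589 against 4252 to 15543 on the other 12, and the part of these differences in results with them was not tested. The other comparisons were repeated without them. The summed signal of 6 B cell markers was 195262 to 261834 in media and 45212 to 100226 with any stimulus, and none of the 6 was near 0 on any array. The summed signal of 8 myeloid markers was 112960 to 235872 in media and 13239 to 144791 with a stimulus, and S100a8 reached 89505. The sums of 6 T cell, 4 dendritic cell, 4 NK cell and 2 erythroid markers were also highest in media or overlapped it, and Alas2, an erythroid gene, ranged from 14190 to 65766. No marker was listed at 0, and the lowest signal was 39 for Xcr1, a dendritic cell gene. In bulk RNA, fewer cells of a type and less RNA per cell cannot be told apart, and the part of other cells in the results below was not tested. With each array shifted to the same median, the median change of all genes moved from -0.13 to 0.12 with anti-IgM, from -0.21 to 0.15 with CpG, from -0.10 to 0.09 with PL2-3 and from -0.29 to 0.30 with both agents. Under that shift, 1637 genes rose and 486 fell with anti-IgM, against 1335 and 1226 without it. It gave 2521 rising and 859 falling genes with CpG (1728 and 2227 without it), 1762 and 962 with PL2-3 (1633 and 1782), and 4016 and 1056 with both agents (2258 and 3262).

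Between 22 and 37 of the 47 tested members rose with each stimulus, and none fell against media, where 9.32%, 16.9%, 13.5% and 24.8% of all genes fell with anti-IgM, CpG, PL2-3 and both agents. With anti-IgM 22 of 47 members rose, where 10.1% of all genes tested did. With CpG 30 of 47 rose (13.1% of all genes), with PL2-3 28 (12.4% of all genes), and with both agents 37 (17.2% of all genes). The median change of the members was 0.46 with anti-IgM, 0.61 with CpG, 0.58 with PL2-3 and 0.83 with both agents, beside medians of -0.13, -0.21, -0.10 and -0.29 over all genes. With each array shifted to the same median, the members' medians were 0.71, 0.97, 0.77 and 1.42 beside 0.12, 0.15, 0.09 and 0.30 over all genes. The 4 comparisons share the media arrays. All 3 stimulated arrays lay above all 3 media arrays for 22, 31, 27 and 38 members in the same order, against 13.4%, 15.9%, 14.7% and 18.9% of all genes. Psmc1, Psmc6, Psmd4 and Psmg3 rose in each comparison but anti-IgM. Psma1, Psma5, Psma6, Psmb3, Psmd13, Psme3ip1 and Psmf1 rose against media with both agents and, on the brightest probe set, passed the test with no other stimulus. The 9 whose brightest probe set rose in no comparison were Psmb1, Psmb8, Psmb10, Psmc2, Psmc3ip, Psmd5, Psmd10, Psme1 and Psme4. With the labelling read from the beta-actin ratios in place of the kits, 27, 32, 29 and 30 members rose and none fell. In that fit 1511, 1901, 1816 and 1867 of all 13160 genes rose. On the Enzo arrays alone 13 members rose with anti-IgM, where 770 of all 13160 genes did. Among members called in the main fit that had other probe sets, 2 of 9, 7 of 14, 4 of 13 and 7 of 19 had one that changed in the opposite direction. Members that were not called also had other probe sets, which were tested in a fit over all 34945 probe sets with 1 symbol. One that rose was found for 5 of 16 such members with anti-IgM (Psma5, Psmb3, Psmc2, Psmd11 and Psmd13) and for 4 of 11 with CpG (Psma5, Psma6, Psmb3 and Psmc2). It was found for 5 of 12 with PL2-3 (Psma5, Psma6, Psmb3, Psmc2 and Psmd13) and for 2 of 6 with both agents (Psmc2 and Psmd11), where a dimmer probe set of Psmb1 (-1.36) and one of Psme4 (-0.97) fell. The counts above use the brightest probe set alone.

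**Figure D1:**
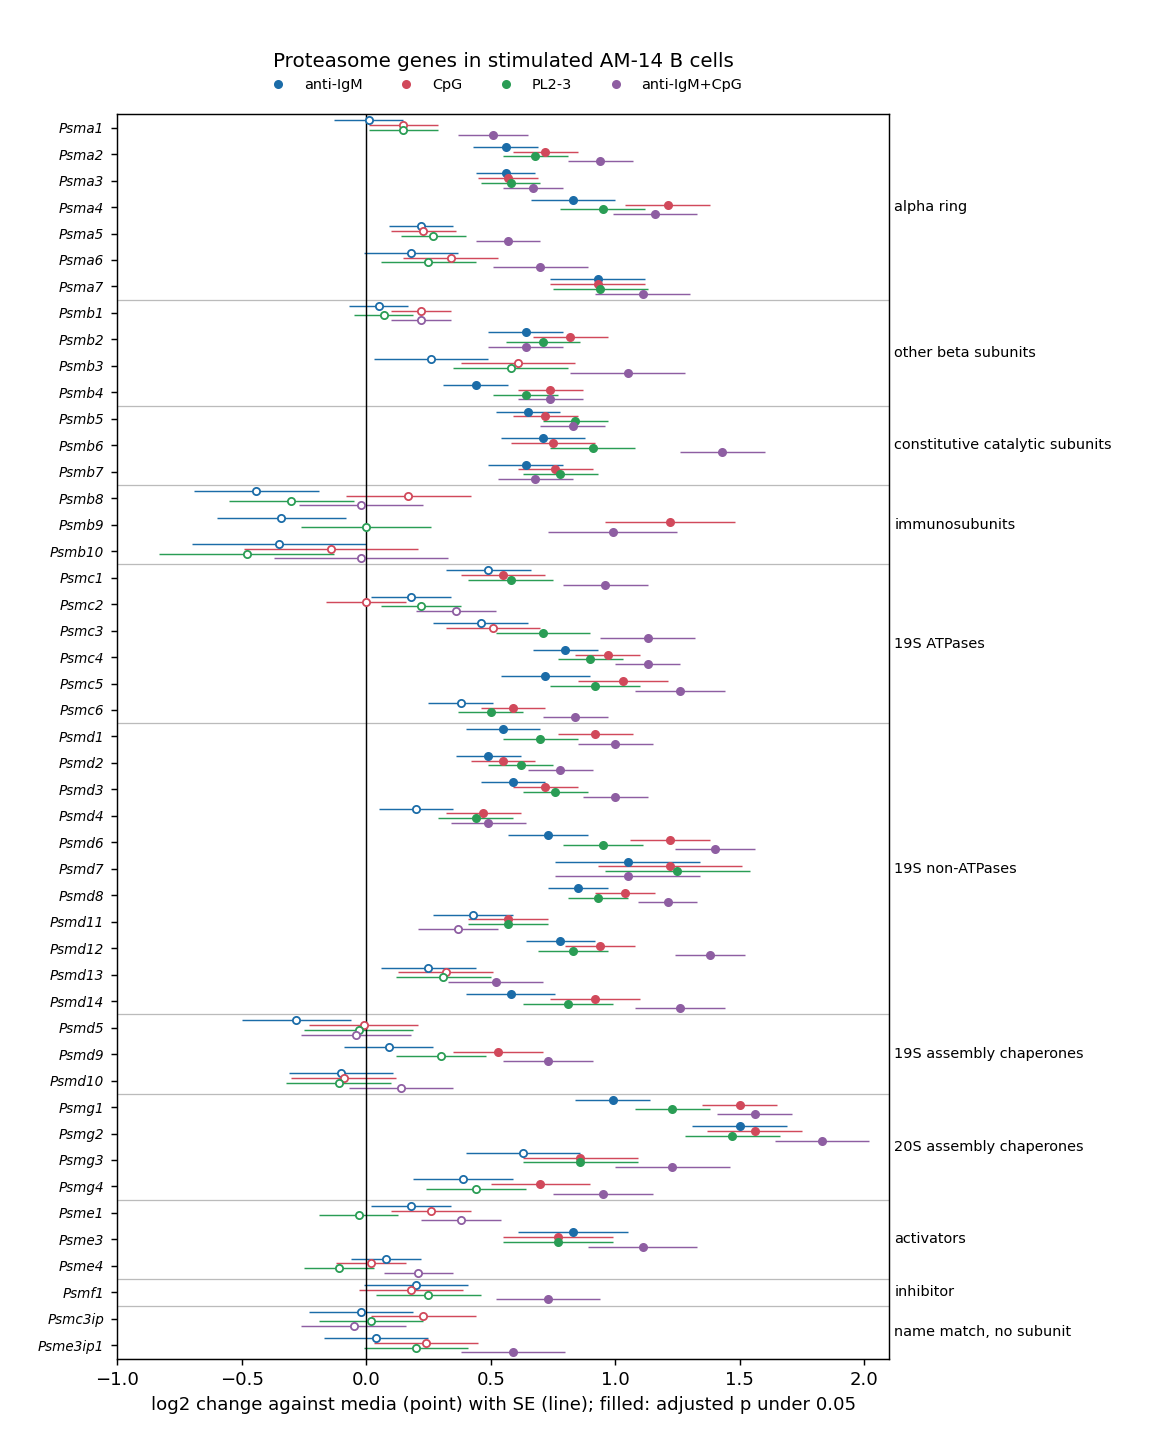
Log2 change against media of each of the 47 tested genes (point) with its standard error (line), for the 4 stimuli, grouped by role; filled points passed an adjusted p of 0.05. Most points lie to the right of 0, while the immunosubunits Psmb8 and Psmb10 lie between -0.48 and 0.17, and Psmb9 lies at 1.22 with CpG and at 0.99 with both agents.

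The constitutive catalytic subunits rose in all 4 comparisons. Psmb5, which encodes the chymotrypsin-like subunit, had signals of 19188, 14723 and 16011 in media. They were 26959, 23604 and 27793 with anti-IgM, 26943, 25067 and 29809 with CpG, 29057, 28398 and 31898 with PL2-3, and 30488, 27906 and 30022 with both agents. Every stimulated array was above every media array, and the 4 stimulated groups lay close together. The log2 changes of Psmb5 were 0.65 ± 0.13 (adjusted p = 0.00267), 0.72 ± 0.13 (0.000769), 0.84 ± 0.13 (0.000256) and 0.83 ± 0.13 (0.000141). Psmb7, the trypsin-like subunit, read 20306, 19533 and 21627 in media. It read 34125, 36580 and 26007 with anti-IgM, 33260, 35143 and 36179 with CpG, 33599, 40857 and 32049 with PL2-3, and 32322, 31761 and 34419 with both agents. Again no stimulated array reached down to media, and the changes were 0.64, 0.76, 0.78 and 0.68 (SE 0.15 each, adjusted p from 0.000877 to 0.00546).

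Psmb6, the caspase-like subunit, was highest with both agents. Its signals were 11763, 11574 and 15679 in media, 22084, 16185 and 26468 with anti-IgM, 20186, 18178 and 28044 with CpG, and 22013, 19808 and 32470 with PL2-3. With both agents they were 39495, 31531 and 34009. The Ambion array was the highest of its group in the first 4 groups, and all stimulated arrays exceeded all media arrays. All 3 anti-IgM+CpG arrays had beta-actin ratios like those of the Ambion arrays (0.105 to 0.193). Replicate 2 of that group, at 31531, was below the PL2-3 Ambion array, at 32470. The changes were 0.71 ± 0.17 (adjusted p = 0.0065), 0.75 ± 0.17 (0.00277), 0.91 ± 0.17 (0.000839) and 1.43 ± 0.17 (7.39e-06).

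Of their inducible counterparts, Psmb9 rose against media in the groups given CpG, and Psmb8 and Psmb10 were not called. Psmb9 had signals of 11783, 12046 and 16947 in media, 11683, 7473 and 13401 with anti-IgM, and 14100, 12112 and 14182 with PL2-3. With CpG they were 35528, 31627 and 27254, and with both agents 42580, 22068 and 20052. The CpG and anti-IgM+CpG arrays were all above every media, anti-IgM and PL2-3 array, and those 3 groups overlapped. The change was 1.22 ± 0.26 with CpG (2.33-fold, adjusted p = 0.00234) and 0.99 ± 0.26 with both agents (1.98-fold, 0.00688). With anti-IgM it was -0.34 ± 0.26 (adjusted p = 0.408) and with PL2-3 0.00 ± 0.26 (0.995; 95% interval -0.55 to 0.56). Replicate 1 of anti-IgM+CpG held the highest Psmb8, Psmb9 and Psmb10 signals of the 15 arrays, and without it the Psmb9 rise with both agents was 0.62. After quantile normalization that rise was 0.60 with an adjusted p of 0.0594.

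Psmb8, which takes the place of Psmb5, read 18327, 17606 and 22882 in media and 13353, 10592 and 20908 with anti-IgM. It read 23457, 20408 and 22103 with CpG, 13920, 13148 and 21748 with PL2-3, and 28930, 15824 and 15610 with both agents. Each stimulated group overlapped media when the kits were pooled. Within each kit all anti-IgM and PL2-3 arrays lay below the media arrays, while CpG and anti-IgM+CpG arrays lay on both sides. The changes of -0.44, 0.17, -0.30 and -0.02 (SE 0.25 each) had limma adjusted p-values of 0.246, 0.636, 0.432 and 0.966. A second, dimmer Psmb8 probe set changed by -1.31, -0.77, -1.71 and -0.33 and passed no test either. Psmb10, the counterpart of Psmb7, read 6687, 7875 and 10113 in media, 6125, 4019 and 10292 with anti-IgM, and 6271, 5412 and 11784 with CpG. It read 5271, 3429 and 10611 with PL2-3 and 14101, 5400 and 6692 with both agents. In the first 4 groups the Ambion array was well above both Enzo arrays, so the signals spread further within groups than their means differed. The fit has a term for the kit. On the Enzo arrays all anti-IgM, CpG and PL2-3 signals were below both media signals. On the Ambion arrays those of the same groups were all above the media signal. The Psmb10 changes were -0.35, -0.14, -0.48 and -0.02 (SE 0.35 each, adjusted p from 0.35 to 0.968). The 95% intervals reach from -1.09 to 0.39 with anti-IgM and from -1.22 to 0.25 with PL2-3, so a fall as large as the constitutive rise would not have been detectable for this gene.

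**Figure D2:**
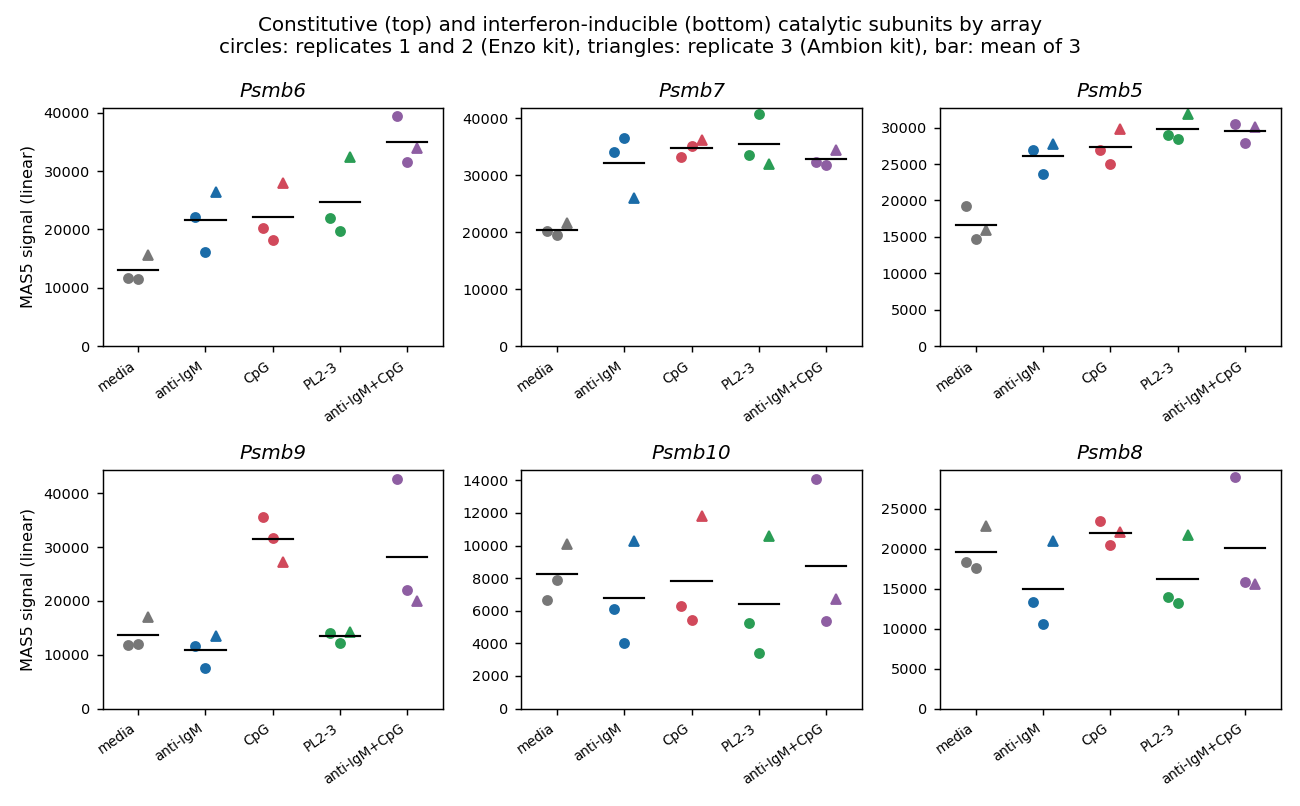
MAS5 signal on each array for the constitutive catalytic subunits (top) and the inducible subunit that replaces each (bottom), by group; circles are Enzo arrays, triangles Ambion arrays and bars the mean of 3. The top genes lie above media with every stimulus, while Psmb9 rises to means of 31470 with CpG and 28233 with both agents, and Psmb8 and Psmb10 overlap media.

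Within each array, the mean log2 value of Psmb8, Psmb9 and Psmb10 minus that of Psmb5, Psmb6 and Psmb7 gives the balance of inducible over constitutive subunits. Its level depends on the probes, so only its change between groups can be read, and no test was made of it. It was -0.35 ± 0.20 in media (SD, n = 3), -1.39 ± 0.45 with anti-IgM, -0.67 ± 0.07 with CpG, -1.45 ± 0.34 with PL2-3 and -1.01 ± 0.54 with both agents. All anti-IgM, CpG and PL2-3 arrays lay below all media arrays, and the anti-IgM+CpG arrays, from -1.35 to -0.39, overlapped them. The pair of Psmb9 and Psmb6 moved by -1.06 with anti-IgM, 0.47 with CpG, -0.90 with PL2-3 and -0.45 with both agents relative to media. The pair of Psmb8 and Psmb5 moved by -1.09, -0.54, -1.14 and -0.85, and the pair of Psmb10 and Psmb7 by -0.99, -0.90, -1.27 and -0.70. With CpG the pair that contains Psmb9 was thus the one whose mean was above media, and its arrays overlapped media because the Ambion array read -0.04.

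**Figure D3:**
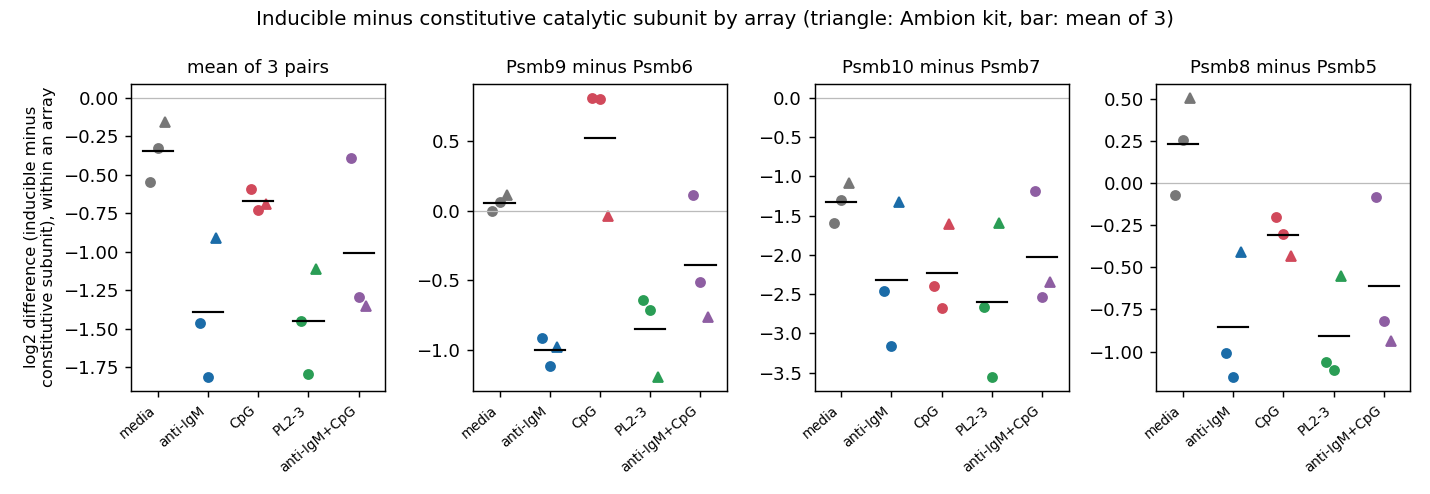
Log2 difference between inducible and constitutive catalytic subunits on each array (circles Enzo, triangles Ambion, bars the mean of 3), for the mean of the 3 pairs and for each pair. The mean of the pairs is -0.35 in media, -1.39 with anti-IgM and -1.45 with PL2-3, and Psmb9 minus Psmb6 reaches 0.81 with CpG; each panel has its own scale.

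Psmb9 and Psmb8 lie in the MHC region of chromosome 17, on either side of Tap1, which encodes a subunit of the transporter that carries peptides to MHC class I. In the RefSeq sequences of build GRCm38.p6, the start of Psmb9 and the start of Tap1 lie on opposite strands with 225 bases between them, so they share the interval printed here. It is printed in the direction of Psmb9 because Psmb9 and Tap1 both rose with CpG, and the promoter of Psmb8, which was not called, follows with that of Psmb5, the constitutive subunit that Psmb8 replaces. Capitals mark the motif matches found.
Psmb9 to Tap1, chr17:34187331-34187555, minus strand: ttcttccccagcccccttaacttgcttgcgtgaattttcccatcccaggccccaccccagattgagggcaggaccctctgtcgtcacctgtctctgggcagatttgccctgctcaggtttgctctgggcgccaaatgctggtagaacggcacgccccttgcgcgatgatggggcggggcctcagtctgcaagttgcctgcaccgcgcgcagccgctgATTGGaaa
Psmb8, chr17:34197945-34198194, plus strand: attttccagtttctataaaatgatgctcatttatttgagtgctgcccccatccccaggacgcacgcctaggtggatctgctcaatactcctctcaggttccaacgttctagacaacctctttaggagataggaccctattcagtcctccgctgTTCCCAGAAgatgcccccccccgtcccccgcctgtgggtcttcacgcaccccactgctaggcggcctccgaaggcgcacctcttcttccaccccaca
Psmb5, chr14:54617996-54618245, minus strand: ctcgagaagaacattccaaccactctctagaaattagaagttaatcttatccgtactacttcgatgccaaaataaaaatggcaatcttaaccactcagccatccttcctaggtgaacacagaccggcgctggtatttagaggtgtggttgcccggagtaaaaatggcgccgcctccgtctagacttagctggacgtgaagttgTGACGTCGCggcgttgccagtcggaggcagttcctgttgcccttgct
These motifs were searched on both strands in the 250 bases before the start of 27025 genes, including 39 proteasome genes. The interferon-stimulated response element (ISRE) was in 3.04% of all promoters and in 3 of the 39 (Psmb3, Psmd4 and Psmd9). The STAT element called GAS, TTCNNNGAA, was in 7.18% of all and in 2 of the 39, namely Psmb8, where TTCCCAGAA lies 97 to 89 bases before the start, and Psmg1. The NF-kB motif was in 7.01% of all and in 5 of the 39 (Psma7, Psmd11, Psmd12, Psmd13 and Psme4). The antioxidant response element, TGACNNNGC, through which the factors encoded by Nfe2l1 and Nfe2l2 are known to act on proteasome genes, was in 10.1% of all and in 5 of the 39. These were Psmb5, where TGACGTCGC lies 47 to 39 bases before the start, Psmb6, where TGACGGAGC lies 9 to 1 bases before it, Psmc6, Psmd9 and Psmd12. CCAAT was in 34.5% of all and in 14 of the 39, with the reverse complement ATTGG 8 to 4 bases before the start of Psmb9. The motifs were searched as letters only, and a match is not evidence of binding.

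In the alpha ring, which gates the core, Psma2, Psma3, Psma4 and Psma7 rose with every stimulus, and all 7 genes tested rose with both agents. Psma7 rose most with anti-IgM, from 12028, 12419 and 7300 in media to 18231, 18812 and 22242, a change of 0.93 ± 0.19 (adjusted p = 0.00302). Psma4 rose most with the other stimuli. Its signals were 10051, 12703 and 7301 in media, 24192, 20145 and 23850 with CpG, 19966, 17448 and 19570 with PL2-3, and 20826, 23242 and 21826 with both agents. No stimulated array of either gene overlapped media. The Psma4 changes were 1.21 ± 0.17 with CpG, 0.95 ± 0.17 with PL2-3 and 1.16 ± 0.17 with both agents (adjusted p = 6.94e-05, 0.00063 and 5.65e-05). The brightest probe sets of Psma1, Psma5 and Psma6 changed by 0.01 to 0.34 with the single stimuli and PL2-3, none called, and by 0.51, 0.57 and 0.70 with both agents. Another Psma5 probe set, at or above the array median on all 15 arrays, rose by 0.98, 1.31, 1.17 and 1.34 with anti-IgM, CpG, PL2-3 and both agents (limma adjusted p over all probe sets from 1.78e-05 to 0.00114). Another of Psma6, also at or above the median throughout, rose by 0.66 with CpG (0.00545) and 0.61 with PL2-3 (0.0101), so for both genes these calls depended on the probe set. With the actin-based labelling Psma1 (0.30) and Psma6 (0.29) were no longer called there.

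Of the beta subunits without catalytic activity, Psmb2 and Psmb4 rose with every stimulus, Psmb3 with both agents, and Psmb1 was not called on its brightest probe set. Psmb2 read 10427, 13330 and 10209 in media, 16983, 19479 and 16448 with anti-IgM, 21381, 20293 and 18148 with CpG, 19796, 17050 and 18520 with PL2-3, and 16881, 16255 and 19869 with both agents. The arrays with both agents overlapped those with anti-IgM or CpG, and all stimulated arrays were above media. The Psmb2 changes were 0.64, 0.82, 0.71 and 0.64 (SE 0.15 each, adjusted p from 0.000529 to 0.0054). Psmb3 read 14826, 15089 and 18430 in media and 35200, 29559 and 35178 with both agents, a rise of 1.05 ± 0.23 (adjusted p = 0.00169). With anti-IgM its arrays spread from 11025 to 31349, across the whole media range. A second Psmb3 probe set read 7969, 8906 and 7653 in media and 13644, 9549 and 22971 with anti-IgM, with no overlap, and rose by 0.82 with anti-IgM (adjusted p over all probe sets = 0.024), 1.09 with CpG (0.00203) and 1.07 with PL2-3 (0.00283). The second Psmb4 probe set, at or above the array median on all 15 arrays, changed by 0.25, -0.20, -0.03 and 0.40. It passed with no stimulus (adjusted p over all probe sets from 0.237 to 0.962), so the probe sets of Psmb4 disagree. Psmb1 changed by 0.05 to 0.22.

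The 6 ATPases of the 19S cap form the ring that unfolds substrates. Psmc4 and Psmc5 rose in all 4 comparisons, and 2, 4, 5 and 5 of the 6 rose with anti-IgM, CpG, PL2-3 and both agents. Psmc4 had the largest rise with anti-IgM, with 8391, 8944 and 7906 in media against 13550, 13566 and 17244 (0.80 ± 0.13, adjusted p = 0.000617). Psmc5 had the largest with the other stimuli. It read 11249, 11373 and 11332 in media, 21465, 20067 and 28806 with CpG, 22509, 14848 and 29653 with PL2-3, and 26594, 24635 and 30794 with both agents. The media arrays were nearly equal, and every array of those 3 groups exceeded them. The Psmc5 changes were 1.03, 0.92 and 1.26 (SE 0.18 each, adjusted p = 0.000372, 0.00109 and 3.74e-05). The brightest probe set of Psmc2 was not called in any comparison, with changes of 0.18, 0.00, 0.22 and 0.36. A second one, at or above the array median on all 15 arrays, rose in each, by 0.68, 0.77, 0.70 and 1.01 (adjusted p over all probe sets = 0.00559, 0.00132, 0.00311 and 7.62e-05), and the dimmest, at or above it on 11 arrays, changed by -1.15 to 0.06 without passing. The probe sets of Psmc2 thus disagree, and so do those of Psmc4. The second Psmc4 probe set, also at or above the array median on all 15 arrays, changed by 0.24, -0.23, 0.16 and 0.41. None of these changes passed (adjusted p over all probe sets from 0.291 to 0.793).

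Among the 11 other subunits of the cap that were tested, 8 rose with anti-IgM and 10 with each other stimulus. Psmd7, which pairs with the deubiquitinase Psmd14, was the dimmest of those named here and had the largest rise with anti-IgM, CpG and PL2-3. It read 3350, 2911 and 1707 in media, 5339, 5196 and 5616 with anti-IgM, 6461, 5328 and 6482 with CpG, and 7287, 6639 and 4855 with PL2-3. With both agents it read 3158, 8268 and 5910, so that replicate 1 fell within the media range while the other stimulated arrays did not. The Psmd7 changes were 1.05, 1.22, 1.25 and 1.05 (SE 0.29 each, adjusted p = 0.0163, 0.00418, 0.00416 and 0.00801). One of its other probe sets, at or above the array median on 5 arrays, changed by -0.48 with anti-IgM, and the other, at or above it on 14 arrays, by 1.30. Psmd6 shared the largest CpG change and had the largest with both agents. It read 9110, 9700 and 10138 in media, 21805, 20135 and 26159 with CpG, and 25514, 24532 and 26926 with both agents, with no overlap. Its changes were 1.22 ± 0.16 (adjusted p = 3.51e-05) and 1.40 ± 0.16 (5.17e-06). The other Psmd6 probe set changed in the opposite direction with CpG and with PL2-3. Psmd12 and Psmd14 also rose in all 4 comparisons, by 0.58 to 0.94 with anti-IgM, CpG and PL2-3 and by 1.38 and 1.26 with both agents. Psmd11 was the exception with both agents, at 0.37, although it rose by 0.57 with CpG and with PL2-3. Another of its probe sets, at or above the array median on all 15 arrays, rose by 0.58 with CpG, 0.68 with PL2-3 and 0.89 with both agents (adjusted p over all probe sets = 0.0276, 0.0115 and 0.000935). The mean of its 8 probe sets, 3 of which were at or above the median on only 1 or 2 arrays, changed by -0.01 with CpG.

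Among the chaperones that assemble the 20S core, Psmg2 had the largest rise of all members with every stimulus. Psmg1 came next with CpG and with both agents, and after Psmd7 with anti-IgM and PL2-3. Psmg1 and Psmg2 form a dimer that builds the alpha ring. Psmg2 read 5156, 4092 and 3741 in media, 11902, 11301 and 13676 with anti-IgM, 10208, 11391 and 17840 with CpG, 10237, 12010 and 14016 with PL2-3, and 13124, 17972 and 15686 with both agents. The lowest stimulated array was above the highest media array, and the 4 stimulated groups overlapped. Its changes were 1.50, 1.56, 1.47 and 1.83 (SE 0.19 each, 2.82-, 2.94-, 2.76- and 3.56-fold, adjusted p from 3.1e-06 to 9.97e-05). Another Psmg2 probe set changed by 0.83 to 1.21 and the dimmest by -0.71 to -0.07. Psmg1, with 1 probe set, read 4277, 3840 and 3956 in media and 7645, 6849 and 9903 with anti-IgM. It read 11195, 9953 and 13792 with CpG, 9649, 7856 and 11523 with PL2-3, and 11689, 11585 and 12649 with both agents. All CpG arrays were above all anti-IgM arrays, with media far below both. The Psmg1 changes were 0.99, 1.50, 1.23 and 1.56 (SE 0.15 each, adjusted p from 1.31e-06 to 0.000295).

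Psmg3 and Psmg4, which form the partner dimer, moved less and with more spread. Psmg3 read 3016, 3587 and 4727 in media, 6031, 3684 and 8651 with anti-IgM, and 9261, 9102 and 8169 with both agents. It rose by 0.86 ± 0.23 with CpG and with PL2-3 (adjusted p = 0.0106 and 0.0118) and by 1.23 ± 0.23 with both agents (0.000547). With PL2-3 its lowest array, 4588, was within the media range, and its Ambion array was the highest in each group but the last. Psmg4 rose by 0.70 ± 0.20 with CpG (adjusted p = 0.0144) and by 0.95 ± 0.20 with both agents (0.0013). The 19S chaperones differed from these: Psmd5 changed by -0.28 to -0.01 and Psmd10 by -0.11 to 0.14, none called, and Psmd9 rose by 0.53 with CpG and 0.73 with both agents. The mean of the Psmd9 probe sets changed in the opposite direction, by -0.32 and -0.37.

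**Figure D4:**
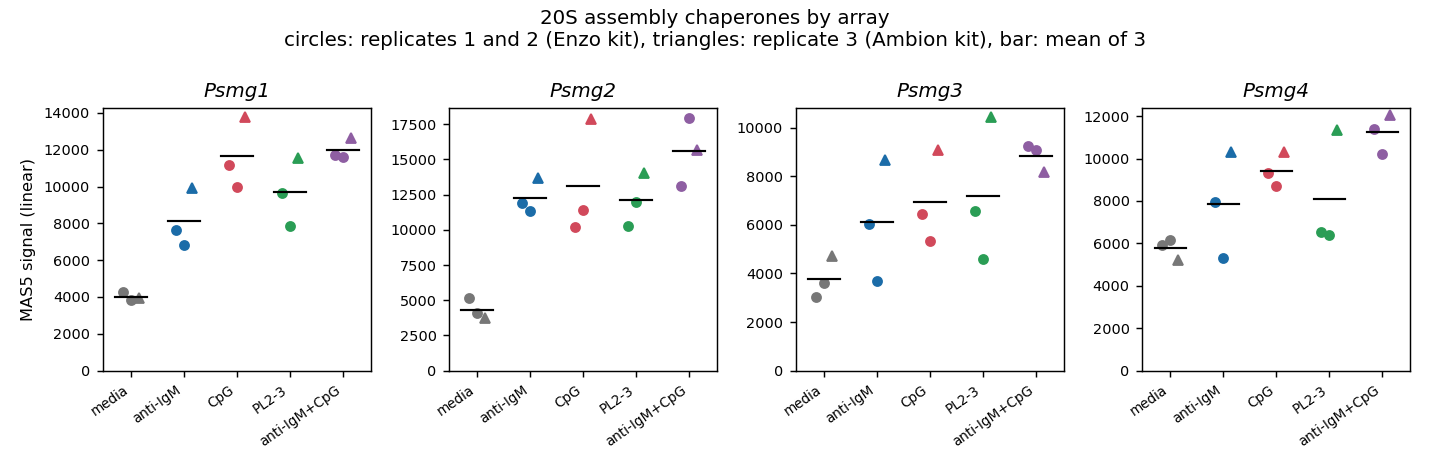
MAS5 signal on each array for the 4 chaperones of 20S assembly, by group; circles are Enzo arrays, triangles Ambion arrays and bars the mean of 3. Psmg1 and Psmg2 lie above media on every stimulated array, from mean signals of 4024 and 4329 in media to 11975 and 15594 with both agents, while Psmg3 and Psmg4 overlap media with anti-IgM.

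Of the activators of the core, Psme3 was the one called against media. Psme3, which encodes a nuclear activator, read 4716, 9171 and 8847 in media, 9505, 15033 and 15133 with anti-IgM, 12348, 10169 and 15193 with CpG, 11018, 13541 and 12770 with PL2-3, and 14265, 16559 and 16731 with both agents. All stimulated arrays exceeded all media arrays, and it rose by 0.83, 0.77, 0.77 and 1.11 (SE 0.22 each, adjusted p = 0.0145, 0.0151, 0.017 and 0.000803). Among its dimmer probe sets at least 1 changed in the opposite direction with CpG and at least 1 with both agents. Psme1, a subunit of the activator that interferon induces, read 29750, 25117 and 34134 in media and 45313, 35160 and 35673 with both agents. Those groups did not overlap, but the change of 0.38 ± 0.16 missed the threshold (adjusted p = 0.0679). It was called at 0.98 with arrays shifted to the same median, at 0.54 on the Enzo arrays alone and at 0.55 without anti-IgM+CpG replicate 3. With the other stimuli Psme1 changed by 0.18, 0.26 and -0.03. Psme4, another nuclear activator, changed by -0.11 to 0.21 and was not called. Psmf1, a proteasome inhibitor, rose with both agents (0.73 ± 0.21, adjusted p = 0.00979), and was at 0.23 (0.324) with the actin-based labelling. Psma8, the alpha subunit of the testis, had signals of 12 to 333, and Psmb11, the catalytic subunit of the thymic cortex, of 55 to 281, too low to be tested.

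Setting the stimuli against one another gave few differences among these genes. In PL2-3 against anti-IgM 0 of 47 members were called, and 0 had an unadjusted p under 0.05, where limma called 0.691% of all genes. The changes lay between -0.21 and 0.35. In PL2-3 against CpG 1 member was called, in which 1.6% of all genes were lower: Psmb9, with PL2-3 at -1.22 ± 0.26 relative to CpG (adjusted p = 0.0154). All its PL2-3 arrays were below all its CpG arrays. The adjusted p lay between 0.0513 and 0.0902 when CpG replicate 1 or 2 or any PL2-3 array was left out, with changes of -1.26 to -1.11, and was 0.0011 in the fit without the anti-IgM+CpG arrays. In CpG against anti-IgM, where 2.57% of all genes were higher, Psmb9 was higher with CpG by 1.56 ± 0.26 (2.95-fold, adjusted p = 0.00118) and Psmg1 by 0.52 ± 0.15 (0.0478). The Psmg1 call was lost without any of the 6 arrays compared (adjusted p from 0.0648 to 0.2), on the Enzo arrays alone (0.117) and after a shift of all arrays to 1 median (0.171). Psmb8 was higher with CpG than with anti-IgM by 0.61 ± 0.25 without passing (adjusted p = 0.2), and passed at 0.0278 when the anti-IgM+CpG arrays were left out of the fit.

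The change with both agents was also compared with the sum of the changes with anti-IgM and with CpG. It was smaller than that sum for 4 members, and for 1.66% of all genes. The difference from the sum was -0.82 ± 0.21 for Psmb2 (adjusted p = 0.0482), -0.69 ± 0.17 for Psmd8 (0.0485), -0.93 ± 0.21 for Psmg1 (0.0288) and -1.22 ± 0.27 for Psmg2 (0.0283). All 4 adjusted p-values lay above 0.05 with arrays shifted to the same median (0.139 to 0.215), without the labelling term (0.078 to 0.117) and on the Enzo arrays alone (0.0566 to 0.143). Leaving out any 1 array of the 4 groups brought the count to 0, 1 or 2, except media replicate 2, without which 4 members were called, and anti-IgM+CpG replicate 3, without which 7 were. Of all 13160 genes, 234 were lower without media replicate 2 and 708 without anti-IgM+CpG replicate 3, against 219 with all arrays. For Psmb9 the difference was 0.11 ± 0.37 and for Psmb6 -0.03 ± 0.24, neither called.

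A list of 29 other genes of the pathway was read beside the members, of which 21 were tested. Of these 5 rose and 1 fell with anti-IgM, 8 rose and 1 fell with CpG and with PL2-3, and 12 rose and 2 fell with both agents, with medians of 0.29, 0.25, 0.29 and 0.50. Over all genes 10.1%, 13.1%, 12.4% and 17.2% rose and 9.32%, 16.9%, 13.5% and 24.8% fell in the same comparisons. Pomp, the chaperone that completes the core, read 13625, 15559 and 15615 in media, 21694, 16926 and 29426 with PL2-3, and 29833, 30019 and 29401 with both agents. It rose by 0.57 ± 0.18 with PL2-3 (adjusted p = 0.0282) and 0.99 ± 0.18 with both agents (0.000383), and with anti-IgM (0.47) and CpG (0.30) its arrays overlapped media. Uchl5, a deubiquitinase of the 19S cap, rose by 1.12, 1.05, 1.13 and 1.43 (SE 0.21 each). The shuttle factors that bring ubiquitinated proteins to the proteasome rose in all 4 comparisons as well: Rad23b by 0.74 to 0.87, Ubqln1 by 0.58 to 0.86 and Ubqln4 by 0.79 to 0.95. So did Nploc4, a cofactor of the unfoldase Vcp, by 0.45 to 0.69. Ube3c and Ecpas, which act on the proteasome itself, rose with CpG (0.69 and 0.93), PL2-3 (0.74 and 0.72) and both agents (0.63 and 0.77), and Vcp rose with CpG (0.42). Sem1, Nfe2l1, Txnl1 and Bag6 rose with both agents by 0.48 to 0.72, and Nfe2l2 fell there by 0.60. Ngly1, the glycanase that processes the Nfe2l1 protein into an active factor, went the other way. It read 3212, 3496 and 4682 in media, 1717, 1760 and 2597 with anti-IgM, 2045, 1917 and 2981 with CpG, 1701, 1145 and 2353 with PL2-3, and 2187, 1963 and 1615 with both agents. All stimulated arrays were below all media arrays, and Ngly1 changed by -0.89, -0.70, -1.14 and -0.95 (SE 0.22 each, adjusted p from 0.0012 to 0.023).

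In a list of 14 genes of antigen processing and interferon signalling, 13 were tested, and 5, 5, 4 and 8 rose with anti-IgM, CpG, PL2-3 and both agents. With PL2-3 2 of 13 fell, where 13.5% of all genes did, and with the other stimuli none fell. The rising shares of all genes were 10.1%, 13.1%, 12.4% and 17.2%. Erap1, which trims peptides in the endoplasmic reticulum, rose in all 4 comparisons, by 0.97 to 1.34. Tap1, the neighbour of Psmb9, read 11622, 12004 and 8157 in media and 11885, 5760 and 11753 with anti-IgM. It read 25460, 21548 and 15943 with CpG, 17958, 11007 and 10922 with PL2-3, and 29038, 24214 and 16868 with both agents. As for Psmb9, the CpG and anti-IgM+CpG arrays were above media and the anti-IgM and PL2-3 groups overlapped it. Tap1 rose by 0.98 ± 0.27 with CpG (adjusted p = 0.012) and by 1.12 ± 0.27 with both agents (0.00349), and was higher with CpG than with anti-IgM by 1.14 ± 0.27 (0.0162). Another Tap1 probe set changed by -0.15 with CpG and -0.22 with both agents. The activator of MHC class I genes Nlrc5 rose by 1.50 ± 0.28 with CpG and 1.35 ± 0.28 with both agents, and was lower with PL2-3 than with CpG (-1.36 ± 0.28, adjusted p = 0.0101). Irf1, a transcription factor known to act on Psmb9 and Tap1, rose by 1.83 ± 0.33 with CpG and 2.03 ± 0.33 with both agents. With PL2-3 its arrays read 30478, 25142 and 6206, and the change of 0.89 ± 0.33 was not called (adjusted p = 0.0597). Tap2, the partner of Tap1, rose with both agents (0.67 ± 0.22). Tapbpl, Canx and Pdia3, which help load or fold MHC class I, rose with anti-IgM, PL2-3 and both agents by 0.48 to 1.72, and Calr with anti-IgM (0.49), where CpG was lower than anti-IgM by 0.83. Irf9 and Stat2, partners in the interferon response, fell with PL2-3 (-0.63 ± 0.17 and -1.31 ± 0.34), with arrays that overlapped media, and Irf9 rose with CpG (0.54 ± 0.17).

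**Figure D5:**
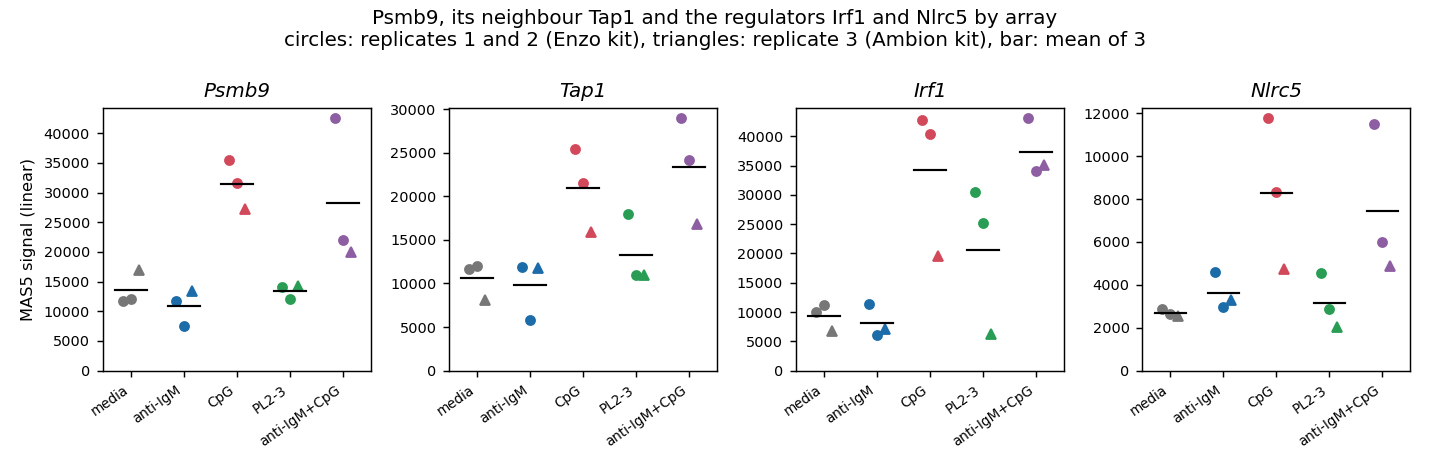
MAS5 signal on each array for Psmb9, for Tap1, whose start faces that of Psmb9, and for Irf1 and Nlrc5, by group; circles are Enzo arrays, triangles Ambion arrays and bars the mean of 3. All 4 genes are above media on every CpG and anti-IgM+CpG array, and Irf1 is also high on PL2-3 replicates 1 and 2 (30478 and 25142) but not on replicate 3 (6206).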

How the data were processed

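The values were the deposited probe set signals, a linear intensity that MAS5 gives per the submitters' processing notes, with no version or scaling target given in the sources used here. RNA was isolated on Qiagen columns and carried a biotin label made by either the Enzo or the Ambion kit, per the labels. The titles were followed for the anti-IgM+CpG group, whose treatment field names no agent.

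Of 45037 probe sets besides 64 controls, 34945 had 1 gene symbol, 932 several and 9160 none, and only the first kind was used. For each of 18193 genes the brightest probe set by mean signal stood for the gene, and 13160 genes that reached the median of an array on 3 or more of the 15 arrays were tested. Signals entered as log2 after adding 75.2, the 20th percentile of all signals, which understates changes of dim genes. A model with group and labelling kit (9 residual degrees of freedom) was fitted with limma 3.58.1 in R 4.3.3 and tested with eBayes and an intensity trend. Tests are two-sided, with Benjamini-Hochberg adjustment within a comparison. With 3 arrays per group the smallest exact permutation p is 0.1, and precision is limited by this number. The fit was tested on simulated data.

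Members, comparisons and both gene lists were chosen with earlier results of these data known. Named in full were the catalytic subunits, their inducible counterparts and Psme1. In the other classes the member with the largest called rise in each comparison with media was named, and the called genes of the lists. Others named beside these were chosen after their values were seen. Promoter sequences came from RefSeq (GRCm38.p6) for 41 of the 49 genes, matched by gene identifier. Alternatives were other scalings, pseudocounts, filters, labelling terms, a replicate block, the Enzo arrays alone, averaging all probe sets of a gene and leaving out each array. A fit without the anti-IgM+CpG arrays was added after seeing the data. Figures used Python 3.11.15 and matplotlib 3.10.9.

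Replicate numbers paired the arrays of 4 groups in part: all 18 same-numbered pairs without an anti-IgM+CpG array correlated over 0.1 in their deviations from group means (0.12 to 0.68), against 8 of 36 with different numbers. With an anti-IgM+CpG array 0 of 12 did. By the labels replicate 3 is the Ambion array of each group, so in pairs with replicate 3 kit and replicate number cannot be told apart.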

Additional observations from a re-analysis of the deposited data

Results flagged for a closer look

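For 4 genes the change with both agents differed, by an interaction contrast in limma, from the sum of the changes with anti-IgM and with CpG. The difference was -0.82 for Psmb2, -0.69 for Psmd8, -0.93 for Psmg1 and -1.22 for Psmg2 on the log2 scale. Of all genes 1.66% were lower by the same contrast. None of the 4 was called with arrays shifted to the same median, without the labelling term or on the Enzo arrays alone. Leaving out 1 array at a time gave 0 to 7 called members. The contrast uses the anti-IgM+CpG arrays, which differ from the others in Xist and in the beta-actin ratio, and the part of those differences in it was not tested.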

How the results depend on the processing

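The counts of members called against media kept their direction under every alternative run except probe sets averaged per gene, where 29 rose and 2 fell with both agents. In that fit 1640 of all 13160 genes rose and 3512 fell with both agents. With the Enzo arrays alone the anti-IgM count was 13, where 770 of all 13160 genes rose. For CpG against anti-IgM the count was 1 with arrays shifted to the same median, with no filter, with no labelling term and on the Enzo arrays. Over all genes 286, 313, 232 and 247 were higher under these settings, against 338 in the main fit. The count was 3 after quantile normalization, with the actin-based labelling and without the anti-IgM+CpG arrays, where 341, 417 and 440 of all genes were higher. For non-additivity the count was 8 after quantile normalization, 0 with arrays shifted to the same median, 2 with no filter, 0 with no labelling term, 1 on the Enzo arrays and 2 with probe sets averaged per gene. Over all genes 461, 20, 165, 23, 249 and 152 were lower under the same settings, against 219 in the main fit. Leaving out 1 array at a time gave 15 to 22 members with anti-IgM, 24 to 29 with CpG, 23 to 27 with PL2-3 and 33 to 39 with both agents. In those fits 875 to 1194, 1350 to 1593, 1281 to 1482 and 1921 to 2226 of all 13160 genes rose. For PL2-3 against anti-IgM the count of members was 0 each time, and for PL2-3 against CpG 0 to 1. For CpG against anti-IgM it was 1 each time, and for non-additivity 0 to 7. Of all genes 109 to 154 were lower for PL2-3 against CpG and 195 to 247 higher for CpG against anti-IgM. For non-additivity 43 to 708 were lower. The balance of inducible over constitutive subunits was -0.95 in media, -2.14 with anti-IgM, -1.43 with CpG, -2.29 with PL2-3 and -1.66 with both agents when probe sets were averaged, since the dim Psmb8 probe set then enters. Without 1 array it ranged from -0.44 to -0.24 in media, -1.63 to -1.18 with anti-IgM, -0.71 to -0.64 with CpG, -1.62 to -1.28 with PL2-3 and -1.32 to -0.84 with both agents. With the replicate block in place of the labelling term, 22, 31, 28 and 37 members rose against media. The pairing check allows this block for 4 groups. In that fit 1354, 1740, 1649 and 2261 of all 13160 genes rose. The CpG count was thus 31, where the main fit gave 30. For non-additivity 3 members in place of 4 were called, Psmb2 being lost (limma adjusted p = 0.0541), and 221 of all genes were lower.

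Some changes turned in sign, among them called ones when probe sets were averaged per gene. Psmb9 with PL2-3 was -0.15 after quantile normalization, -0.09 without media replicate 1, -0.07 without media replicate 2, -0.04 without PL2-3 replicate 1 and -0.03 without PL2-3 replicate 3, and reached 0.19 without media replicate 3. With arrays shifted to the same median Psmb10 with CpG was 0.22, Psme1 with PL2-3 0.15, and Psmb8 and Psmb10 with both agents 0.58 and 0.57. On the Enzo arrays the last pair was 0.25 and 0.26. Psme1 with PL2-3 was 0.02 without media replicate 1 and 0.10 without PL2-3 replicate 1, and -0.14 without PL2-3 replicate 3. With both agents Psmb10 was 0.08 without media replicate 2, and Psmb8 was 0.01 without media replicate 3. Without anti-IgM+CpG replicate 1 they were -0.37 for Psmb8 and -0.57 for Psmb10. Without anti-IgM+CpG replicate 2 the pair was 0.08 and 0.15, and without replicate 3 it was 0.29 and 0.43. With probe sets averaged per gene, Psmb8 with CpG, which was not called, was -0.30. Called rises turned there as well. Psmd11 and Psmd9 with CpG went from 0.57 and 0.53 to -0.01 and -0.32. Psma1, Psma3, Psmd13 and Psmd9 with both agents went from 0.51, 0.67, 0.52 and 0.73 to -0.34, -0.05, -0.09 and -0.37. The causes were not tested.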

Other observations

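The genes outside the members whose values over the 15 arrays were most like the mean of Psmb8, Psmb9 and Psmb10 were Cmpk1 (Pearson r = 0.929), Nono (0.914), Selenot (0.908), Adprm (0.887) and Slc25a12 (0.882). Those most like the mean of the 6 Psmc genes were Mrps28 (0.987), Ddx1 (0.987), Rcc1 (0.986), Sec13 (0.986) and Nme1 (0.984). These correlations run over all 15 arrays, which share groups and labelling kits, and are a description without a test.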
